A study of Rhinolophus ferrumequinum with 8 samples.

Results

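The genes described, chosen with earlier results of these data known, are 10 markers of the resident macrophages of spleen. They were picked by name, with no measured value in the rule. They are the receptors MARCO, CD163, VCAM1, TIMD4 and SIGLEC1, the secreted protein CD5L, the 3 chains of complement C1q (C1QA, C1QB and C1QC) and the transcription factor SPIC. All 10 had a row among the 19652 protein-coding genes measured, and all 10 were among the 13542 genes with a mean of at least 1 that were tested. Expression was measured by RNA sequencing of entire spleens from wild females of the greater horseshoe bat (Rhinolophus ferrumequinum), with 2 biological replicates in each of 4 states. Bats in torpor, the cold and inactive phase of hibernation, were sampled in November. Arousal and winter active bats were also taken in November, 2 h and 26 h after capture. Summer active bats were sampled in July. The labels give no age, genotype or treatment, and the November states share a season that cannot be told apart from their common difference from summer. A library is called by its state and its replicate number (torpor 1). Levels are rescaled TPM, a signal per transcript length, and the method of rescaling is unknown. Levels can be compared between genes if the rescaling was a common factor for each library. Comparison between libraries rests on that rescaling as well. They come without counts of reads, and sequencing depth is therefore unknown.

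Red pulp macrophages take up old red blood cells, degrade their heme and return the iron to the circulation, and in mouse their development needs SPIC. Marginal zone macrophages sit where blood enters the white pulp and bind particles through scavenger receptors such as MARCO. SIGLEC1 is a sialic acid receptor of macrophages. C1q is the recognition molecule that starts the classical complement pathway, is built from its A, B and C chains together, and is made mainly by macrophages rather than by the liver. TIMD4 and C1q both help macrophages recognise dying cells.

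Replicates agreed least in summer active (r = 0.915 over the log2 levels of the tested genes) and most in winter active (r = 0.959). Column totals of rescaled TPM ran between 745098 and 1331820. Transcripts of other tissues differed between libraries, and 11 hepatocyte markers summed to 20170 in arousal 2 against 51.2 to 2857 in the other 7 libraries. Of 18 further macrophage markers all 18 were measured. CSF1R, the receptor for the growth factor that keeps macrophages alive, lay between 221 and 1178, and the lysosomal protein CD68 between 92.5 and 313. In whole spleen, fewer macrophages and less RNA per macrophage cannot be told apart.

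The C1q chains were among the most abundant transcripts of these spleens. By mean level over the 8 libraries C1QA ranked 12, C1QB 23 and C1QC 31 of 19652 genes. VCAM1 ranked 105 and SPIC 194. The other members lay far lower, with ranks of 897 for MARCO, 1676 for CD5L, 1969 for CD163, 2032 for SIGLEC1 and 3396 for TIMD4. The spread over libraries was of like size throughout, with the highest library between 3.44 times (CD163) and 6.54 times (SPIC) the lowest. The plot of levels by state shows all 8 values of each gene.

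**Figure D1:**
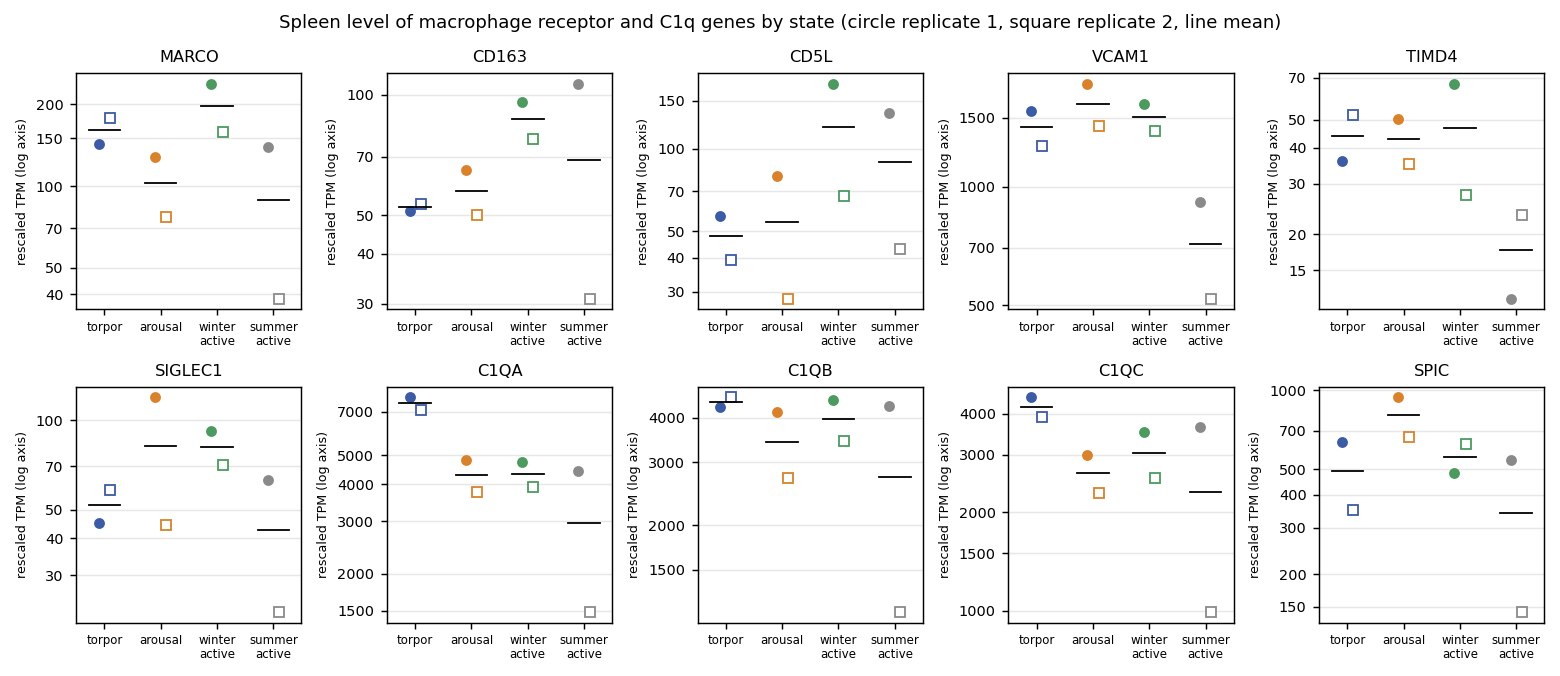
Level of each of the 10 genes in rescaled TPM (vertical log axis) in torpor, arousal, winter active and summer active spleen. Circles are replicate 1, squares replicate 2 and lines the mean of 2 libraries. VCAM1 and TIMD4 have all 6 November libraries above both summer libraries, and C1QA has both torpor libraries above the other 6.

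Among the scavenger proteins, MARCO, a receptor that binds bacteria and modified lipoproteins, stood at 143 and 179 in torpor, 128 and 76.9 in arousal, 238 and 158 in winter active and 139 and 38.6 in summer active. Its states ranked, from low to high, as summer active, arousal, torpor and winter active, and both torpor libraries lay above both arousal libraries, while the other neighbouring states overlapped. CD163, the receptor that clears hemoglobin bound to haptoglobin, stood at 51.3 and 53.3 in torpor, 65.0 and 49.9 in arousal, 96.0 and 77.7 in winter active and 107 and 30.9 in summer active. No neighbouring states of CD163 were separate, and the summer libraries held both its highest and its lowest value. CD5L, a soluble scavenger protein that macrophages secrete, stood at 56.7 and 39.1 in torpor, 79.7 and 28.3 in arousal, 173 and 67.2 in winter active and 135 and 42.9 in summer active. Its replicates differed by about as much as its states, and none of its neighbouring states were separate.

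Among the receptors for cells, VCAM1, which binds integrins on leukocytes and red cell precursors and is also made by endothelial and stromal cells, stood at 1562 and 1274 in torpor, 1825 and 1425 in arousal, 1621 and 1389.9 in winter active and 915 and 521 in summer active. Every November library exceeded both summer libraries, and the 3 November states overlapped with each other. TIMD4, which binds phosphatidylserine on dying cells, stood at 35.8 and 51.7 in torpor, 50.3 and 35.1 in arousal, 66.5 and 27.3 in winter active and 11.98 and 23.4 in summer active. Here too every November library lay above both summer libraries, by a narrow margin for winter active 2. SIGLEC1 (sialoadhesin) stood at 45.0 and 58.5 in torpor, 119.8 and 44.4 in arousal, 92.0 and 71.0 in winter active and 63.0 and 22.6 in summer active. Both winter active libraries of SIGLEC1 lay above both torpor libraries, while the arousal libraries overlapped with both of these states.

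The 3 chains of C1q followed one order of states, from summer active through arousal and winter active to torpor. C1QA stood at 7835 and 7117 in torpor, 4818 and 3756 in arousal, 4749 and 3921 in winter active and 4418 and 1488 in summer active. Both torpor libraries of C1QA lay above all other libraries, which held for 5.29% of tested genes. C1QB stood at 4294 and 4559.7 in torpor, 4144 and 2715 in arousal, 4479 and 3437 in winter active and 4306 and 1146 in summer active. For C1QB, torpor overlapped with winter active and with summer active. C1QC stood at 4494 and 3908 in torpor, 2990.1 and 2284 in arousal, 3525 and 2536 in winter active and 3633 and 992 in summer active, and its torpor libraries were separate from every other state. In the annotation of assembly mRhiFer1_v1.p the chains are direct neighbours in the order C1QA, C1QC, C1QB, between EPHA8 and EPHB2.

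SPIC, the factor that red pulp macrophages depend on in mouse, stood at 637 and 350.4 in torpor, 939 and 666 in arousal, 484 and 626 in winter active and 541 and 144 in summer active. Both arousal libraries lay above both winter active libraries and above all the rest. The other neighbouring states of SPIC overlapped.

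Of the 10 genes, 8 had their lowest value in summer active 2, against 18.4% of all tested genes. All 10 lay below their own 8-library mean in that library, with a median log2 distance of -1.41. In summer active 1 the median distance was 0.16. Of the members 9, all but TIMD4, were lower in summer active 2 than in summer active 1, which held for 46.2% of tested genes. The median gap between the summer replicates was 1.69 on the log2 scale for the members and 0.35 for all tested genes, while the members' median gap was 0.31 in torpor, 0.50 in arousal and 0.38 in winter active. C1QB had the largest such gap in summer active, 1.91 on the log2 scale. The same pair of libraries differed in other macrophage markers, whose 18 genes summed to 1544 in summer active 2 and 3781 in summer active 1. How far that list bears on the members' values was not tested. The plot of both summer libraries shows each difference from summer with either library alone.

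**Figure D2:**
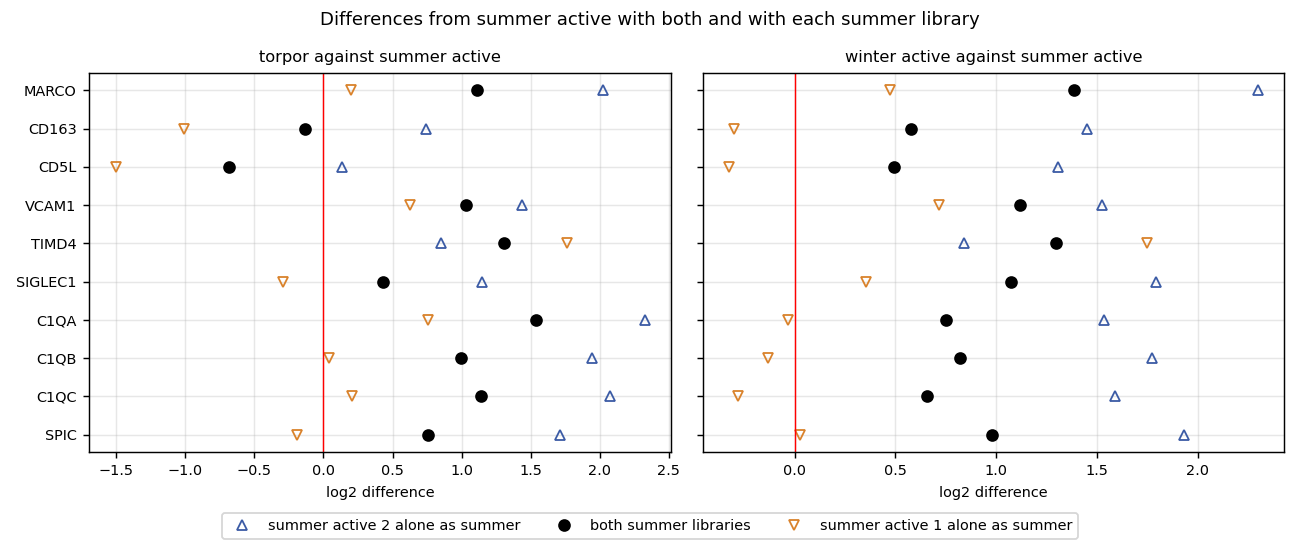
Log2 difference of each gene (horizontal axis) for torpor (left) and winter active (right) against summer active, with both summer libraries (filled circles), summer active 2 alone (upward triangles) or summer active 1 alone (downward triangles). VCAM1 and TIMD4 stay above 0 in all 3 cases of both panels, as does MARCO, whereas CD163, CD5L and others cross it.

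Torpor against summer active asks how spleens of hibernating bats differ from those of summer bats. Of the 10 members 8 had a positive difference, against 45.1% of all tested genes, but no member passed the test. C1QA averaged 7476 ± 508 in torpor and 2953 ± 2072 in summer active (SD, n = 2 each), a log2 difference of 1.54 (SE 0.48, limma adjusted p = 0.201). VCAM1 averaged 1418 ± 204 in torpor and 718 ± 278 in summer active, a difference of 1.03 (SE 0.31, limma adjusted p = 0.191). TIMD4 averaged 43.8 ± 11.2 in torpor and 17.7 ± 8.07 in summer active, a difference of 1.31 (SE 0.48, limma adjusted p = 0.252). MARCO, C1QC and C1QB differed by 1.11, 1.14 and 0.99, SPIC by 0.76 and SIGLEC1 by 0.43, while CD163 and CD5L differed by -0.14 and -0.69. By limma 0 of 10 members passed an adjusted p of 0.05, against 0.561% of all tested genes, and 3 of 10 (VCAM1, C1QA and TIMD4) had an unadjusted p under 0.05, against 16.0% of all. The libraries of 5 members, MARCO, VCAM1, TIMD4, C1QA and C1QC, were separate and higher in torpor, against 20.4% of genes. The members' median difference was 1.01, beside -0.055 over all tested genes. Without summer active 2 that median was 0.12, and without summer active 1 it was 1.57. A fit without either summer library takes the spread of the single one left from the other states.

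Winter active against summer active compares the active states of both seasons. All 10 members stood higher in winter active, against 54.0% of all tested genes with a positive difference, and no member passed. VCAM1 averaged 1506 ± 164 in winter active and 718 ± 278 in summer active (SD, n = 2 each), a log2 difference of 1.12 (SE 0.31, limma adjusted p = 0.176). MARCO averaged 198 ± 56.1 in winter active and 88.9 ± 71.2 in summer active, a difference of 1.39 (SE 0.57, limma adjusted p = 0.319). TIMD4 differed by 1.30 and SIGLEC1 by 1.07, and VCAM1, MARCO, TIMD4 and SIGLEC1 had separate libraries, against 27.2% of genes that were separate and higher. SPIC, C1QB, C1QA, C1QC, CD163 and CD5L differed by 0.98, 0.82, 0.75, 0.66, 0.58 and 0.49, each with overlapping libraries. By limma 0 of 10 passed, against 1.03% of all tested genes, and 3 of 10 had an unadjusted p under 0.05, against 14.8%. The median of the members was 0.90, beside 0.046 over all tested genes, and it was -0.0036 without summer active 2 and 1.56 without summer active 1. With columns set to totals of 1000000 VCAM1 passed (limma adjusted p = 0.0443), at 1.14 above the all-gene median of 0.55. In that setting 779 of the 13542 tested genes passed.

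**Figure D3:**
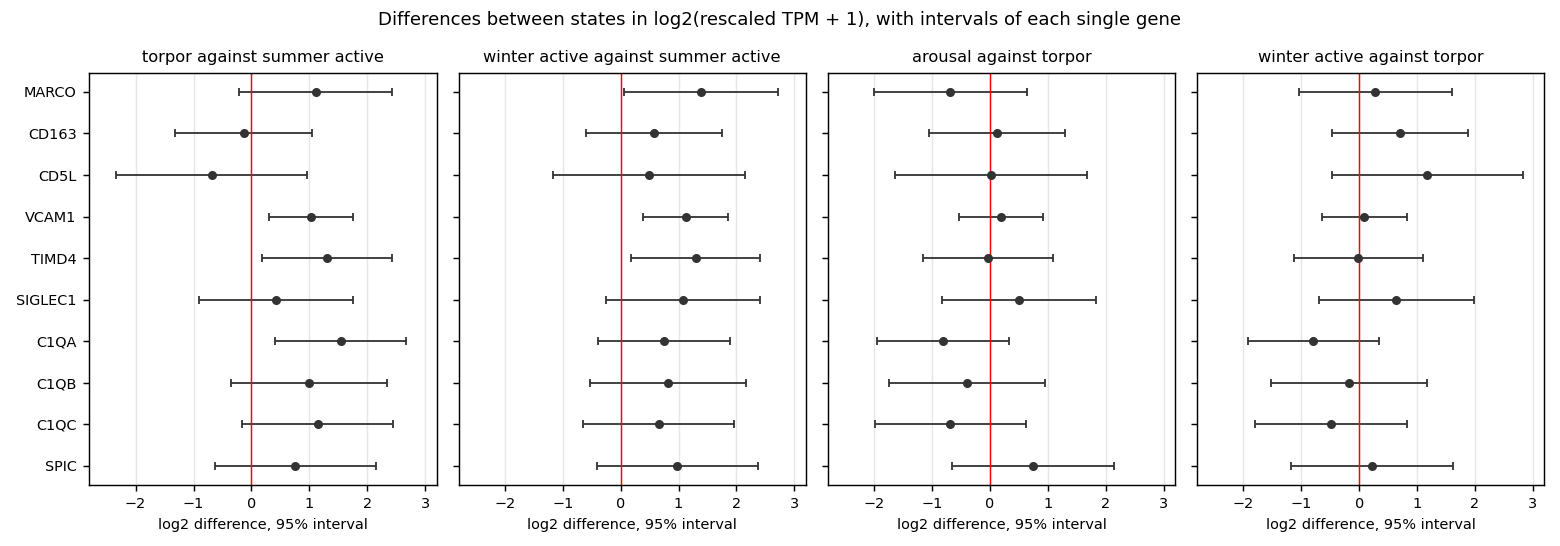
Log2 difference with its 95% interval (horizontal axis, on log2 of rescaled TPM plus 1) for each gene in 4 comparisons, each from 2 libraries per state in one limma fit of 8 libraries. In both comparisons with summer active the intervals of VCAM1 and TIMD4 lie above 0 before adjustment for the number of genes tested, and in both comparisons with torpor every interval spans 0.

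Arousal against torpor sets bats captured for 2 h beside torpid ones. C1QA averaged 4287 ± 751 in arousal and 7476 ± 508 in torpor (SD, n = 2 each), a log2 difference of -0.81 (95% interval -1.95 to 0.32, limma adjusted p = 0.372). C1QC, MARCO and C1QB differed by -0.68, -0.68 and -0.40, and all 4 of these genes had separate libraries, lower in arousal, against 22.2% of tested genes. SPIC averaged 803 ± 193 in arousal and 494 ± 203 in torpor, a difference of 0.74 (95% interval -0.65 to 2.14, limma adjusted p = 0.500). SPIC was the one member with separate and higher libraries, against 31.9% of genes. SIGLEC1, VCAM1, CD163, CD5L and TIMD4 differed by 0.50, 0.19, 0.12, 0.017 and -0.035, with overlapping libraries. By limma 0 of 10 members passed and 0 had an unadjusted p under 0.05, against 0.0% and 19.7% of all tested genes. The members' median was -0.0092, beside 0.11 over all tested genes. Hepatocyte markers moved with this comparison in all 11 genes tested, with sums of 1190 to 20170 in arousal and 97.7 to 929 in torpor, and their part in the members' values was not tested.

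Winter active against torpor sets bats captured for 26 h beside torpid ones. CD5L averaged 119.9 ± 74.6 in winter active and 47.9 ± 12.5 in torpor (SD, n = 2 each), a log2 difference of 1.18 (95% interval -0.48 to 2.83, limma adjusted p = 0.489). CD163 averaged 86.8 ± 13.0 in winter active and 52.3 ± 1.44 in torpor, a difference of 0.71 (95% interval -0.46 to 1.89, limma adjusted p = 0.553). CD5L, CD163 and SIGLEC1 (0.65) had separate libraries, higher in winter active, against 29.6% of genes, and C1QA (-0.79) and C1QC (-0.49) had separate libraries, lower in winter active, against 21.3%. MARCO, SPIC, VCAM1, TIMD4 and C1QB differed by 0.28, 0.22, 0.090, -0.012 and -0.17. By limma 0 of 10 passed and 0 had an unadjusted p under 0.05, against 0.0% and 13.2% of all tested genes. Hepatocyte markers were lower in winter active in 11 of 11 genes tested (sums of 51.2 to 81.3 in winter active and 97.7 to 929 in torpor), pancreatic markers in 5 of 5 (21.8 to 95.4 in winter active and 324 to 1334 in torpor) and neutrophil markers in 9 of 10 (1156 to 1374 in winter active and 1597 to 12690 in torpor). Their part in the members' values was not tested. The median was 0.16, beside 0.079 over all tested genes.

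Of the other comparisons, by limma 0 of 10 members passed between arousal and summer active, against 5.52% of all tested genes, and 0 of 10 between winter active and arousal, against 0.0%. VCAM1 came nearest, at 1625 ± 283 in arousal and 718 ± 278 in summer active, a log2 difference of 1.22 (SE 0.31, limma adjusted p = 0.0623). SPIC and TIMD4 differed by 1.501 and 1.27 between arousal and summer active, and 3 of 10 members had an unadjusted p under 0.05, against 28.9% of all tested genes. The members' median was 0.66 there, and it was -0.21 without summer active 2 and 1.46 without summer active 1. In winter active against arousal, where no member had an unadjusted p under 0.05 against 5.45% of all tested genes, MARCO, CD5L and CD163 differed by 0.96, 1.16 and 0.59. A comparison of the mean of the 3 November states with summer active was added after the values were seen. In it VCAM1 ranged from 1274 through a median of 1494 to 1825 in November and stood at 915 and 521 in summer active, a difference of 1.12 (SE 0.25, limma adjusted p = 0.0641). TIMD4 differed by 1.29 (limma adjusted p = 0.116) and C1QA by 1.01 (limma adjusted p = 0.188). By limma 0 of 10 members passed, against 2.92% of all tested genes, and 3 had an unadjusted p under 0.05, against 23.1%. VCAM1 and TIMD4, 2 of 10, had all November libraries above both summer libraries, against 9.37% of tested genes. Without summer active 1 the members' median was 1.61, and C1QA, SPIC and MARCO differed by 1.79, 2.03 and 1.89. Without summer active 2 the members' median was 0.076, against 0.89 with all libraries, and C1QA, SPIC and MARCO differed by 0.22, 0.13 and 0.061. Since torpor, arousal and winter active share the same summer libraries, their differences from summer are not separate evidence.

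Ratios between members within a library are unchanged by a common scaling factor for that library, but the rescaling method is unknown and may not be such a factor. The ratios given here were chosen after the values were seen and are described with no test. C1QA over CD163 was 153 and 133 in torpor, 74.1 and 75.2 in arousal, 49.5 and 50.5 in winter active and 41.5 and 48.1 in summer active. The replicates' ratios of C1QA to CD163 lay close, also in summer active, where C1QA was 2.97 times and CD163 3.44 times as high in the first library as in the second. In summer active the ratios to CD163 also lay close for MARCO, C1QB, C1QC (34.1 and 32.05), SPIC (5.075 and 4.644) and CD5L (1.271 and 1.387). They lay further apart for TIMD4 (0.113 and 0.756) and VCAM1 (8.59 and 16.8). CD5L over CD163 was 1.23 and 0.567 in arousal and 1.80 and 0.865 in winter active, and SIGLEC1 over CD163 was 1.84 and 0.890 in arousal. C1QB over CD163 was 83.7 and 85.5 in torpor, 63.8 and 54.4 in arousal, 46.7 and 44.3 in winter active and 40.4 and 37.0 in summer active. For MARCO and all 3 C1q chains both torpor ratios to CD163 exceeded those in the other 6 libraries, which held for 2.44% of tested genes. CD163 itself had its lowest state mean in torpor (52.3). CD163 over CSF1R was 0.061 and 0.051 in torpor and 0.055 and 0.073 in arousal. It was 0.108 and 0.091 in winter active and 0.142 and 0.14 in summer active. All ratios to CD163 share this denominator, which beside CSF1R was lower in every November library than in summer active. The mean level of MARCO itself was highest in winter active, and its ratios to CSF1R and CD68 are not given here. With CD68 in place of CD163 the C1QA ratio was not highest in torpor. C1QA over CD68 was 25.04 and 27.93 in torpor, 22.85 and 35.17 in arousal, 35.23 and 42.37 in winter active and 18.59 and 12.16 in summer active. VCAM1 over CD163 was 30.5 and 23.9 in torpor, 28.1 and 28.5 in arousal, 16.9 and 17.9 in winter active and 8.59 and 16.8 in summer active, with torpor and arousal above the other 4 libraries (2.57% of tested genes). SPIC over CD163 was highest in arousal, at 14.5 and 13.3, against 12.4 and 6.57 in torpor. MARCO over CD163 was lowest in summer active, at 1.31 and 1.25, while the November libraries lay between 1.54 and 3.35, and such a split held for 1.76% of tested genes. The ratios of C1QA, C1QB, VCAM1 and SIGLEC1 to CD163 split the same way, narrowly for VCAM1 (16.83 in summer active 2 and 16.89 in winter active 1). The chains of C1q themselves did not keep one proportion, and C1QA over C1QB was 1.83 and 1.56 in torpor against 1.03 to 1.38 in the other 6 libraries. C1QA made up 35.8% to 47.1% of the summed level of the chains, C1QB 25.8% to 35.1% and C1QC 25.0% to 29.4%.

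**Figure D4:**
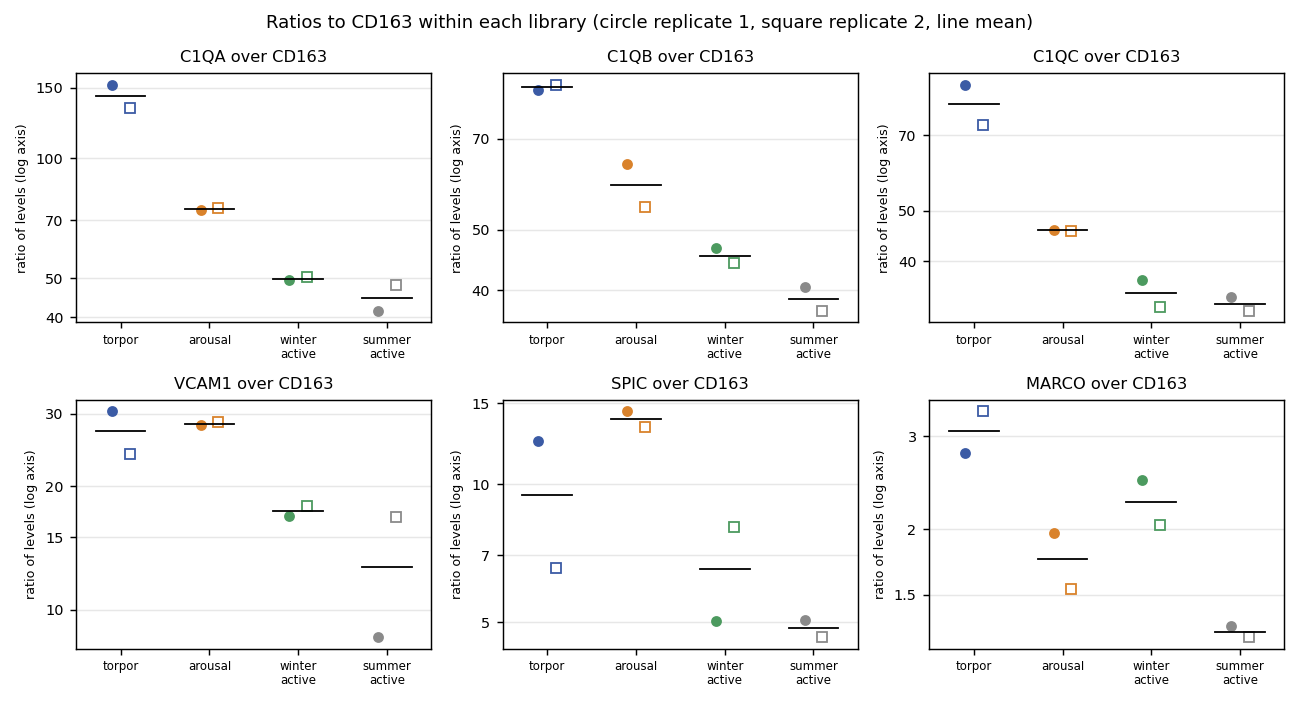
Ratio of the level of C1QA, C1QB, C1QC, MARCO, VCAM1 and SPIC to that of CD163 within each library (vertical log axis), by state, with circles for replicate 1, squares for replicate 2 and lines for the mean. The C1q ratios are highest in torpor and next highest in arousal, and the summer active replicates lie near each other for all plotted genes but VCAM1 (8.59 and 16.8).

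When each library was instead scaled to the mean log2 level of the 18 other macrophage markers, an alternative added after the values were seen, 0 of 10 members passed in any comparison by limma. On that scale 0.421% of all tested genes passed in torpor, 0.51% in winter active, 0.908% in arousal and 1.26% in November against summer active. The members' median difference on that scale was 0.83 for torpor and 0.80 for winter active against summer active, beside -0.23 and -0.055 over all tested genes. C1QA differed by 1.36 in torpor against summer active and MARCO by 1.29 in winter active against summer active (limma adjusted p = 0.321 and 0.372).

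Across the 8 libraries the members split by pattern, as a description over few points that share summer active 2 as a low extreme. C1QB and C1QC were most alike (Pearson r = 0.970 on log2 levels, 8 libraries), followed by C1QA and C1QC (r = 0.965). Next in order came MARCO and C1QB (0.930), C1QA and C1QB (0.919), MARCO and C1QC (0.877), VCAM1 and SPIC (0.868) and CD163 and CD5L (0.816). TIMD4 was unlike CD163 (-0.075) and CD5L (-0.046). The genes most like C1QA among 12314 named genes were PILRA (r = 0.99), CD300LF, ALDOA, ZCWPW1 and C1QC. Those most like CD163 were EGLN2 (r = 0.97), KCNQ1, ELMO1, ISYNA1 and RASIP1. MARCO was matched most closely by RASGRP2 (r = 0.98), RARRES1, SUMF1, KAZALD1 and IRF9, and VCAM1 by P2RY6 (r = 0.99), ATP8B4, RGL1, MLIP and NLRP12.

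Partners of C1q in complement were measured for 19 of 23 listed genes. By limma none passed in either direction in any of the 4 main comparisons. Between 1 and 3 had an unadjusted p under 0.05, against 13.2% to 19.7% of all tested genes in these comparisons. C1R and C1S, the proteases that bind C1q, averaged 332 ± 169 and 130.1 ± 81.2 in torpor and 443 ± 74.7 and 163 ± 71.8 in summer active. Their inhibitor SERPING1 averaged 495 ± 201 in torpor and 611 ± 59.2 in summer active. Thus the means of the proteases and their inhibitor were lower in torpor where those of the C1q chains were higher, with overlapping libraries for all 3 of these genes. Only torpor 1 lay below both summer libraries (C1R 213, C1S 72.8 and SERPING1 353). Torpor 2 lay between the summer libraries (452, 188 and 637). The central component C3, which the liver also makes, reached 240.3 in arousal 2 and lay between 22.6 and 97.2 elsewhere. CD59, which blocks the membrane attack complex, had the smallest p of the list in both main comparisons with summer, with differences of 1.12 in torpor and 1.20 in winter active (limma adjusted p = 0.182 and 0.171). C3AR1, a receptor for a C3 fragment, differed by 1.12 in arousal against torpor, and CD93 by 1.502 in winter active against torpor (limma adjusted p = 0.211 and 0.314).

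Other macrophage markers were tested for 18 of 18 genes. By limma none passed in either direction in the 4 main comparisons, with 0 to 3 at an unadjusted p under 0.05. That p was reached by 13.2% to 19.7% of all tested genes. Their median difference was 0.44 in torpor and 0.24 in winter active against summer active, beside 1.01 and 0.90 for the members. CSF1R averaged 942 ± 152 in torpor, 930.5 ± 351 in arousal, 874 ± 25.3 in winter active and 486 ± 375 in summer active. CD68 followed another course, with 284 ± 41.1 in torpor, 159 ± 73.5 in arousal, 114 ± 29.9 in winter active and 180.0 ± 81.5 in summer active. LYVE1, a hyaluronan receptor that lymphatic endothelium also bears, differed by -1.43 in torpor against summer active and by 1.42 in winter active against torpor (limma adjusted p = 0.112 and 0.271). MS4A7 differed by -0.96 in arousal against torpor (limma adjusted p = 0.200) and the uptake receptor MERTK by 0.54 in winter active against summer active (0.379). MRC1 and VSIG4 were low, at 8.89 to 22.6 and 2.35 to 8.93.

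Of the other scavenger receptors 10 of 13 were tested. By limma none passed in the 4 main comparisons. From 0 to 2 had an unadjusted p under 0.05, against 13.2% to 19.7% of all tested genes. MSR1, a class A receptor like MARCO, lay between 6.46 and 21.9, and STAB2, a receptor of sinus endothelium, between 2.97 and 20.4. The smallest p values of the list belonged to the beta-glucan receptor CLEC7A (1.10 in torpor against summer active), SCARA3 (0.60 in arousal against torpor), STAB2 (1.81 in winter active against torpor) and SCARA5 (0.97 in winter active against summer active), with limma adjusted p = 0.339, 0.248, 0.314 and 0.281.

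Heme and iron handling genes were tested for 13 of 14, and by limma none passed in the 4 main comparisons. From 0 to 3 had an unadjusted p under 0.05, against 13.2% to 19.7% of all tested genes. HMOX1, which opens the heme ring, averaged 1948 ± 522 in torpor and 900.2 ± 718 in summer active, and the iron exporter SLC40A1 averaged 777 ± 340 in torpor and 424 ± 154 in summer active. HMOX1 and SLC40A1 had separate libraries, higher in torpor, with differences of 1.36 and 0.85 (limma adjusted p = 0.387 and 0.352). Of the 13 listed genes tested, 3 were separate and higher in torpor, against 20.4% of all tested genes, and 2 were separate and lower. The SLC40A1 levels of torpor 1 (536) and summer active 1 (533) lay close. NCOA4, the receptor that sends ferritin for degradation, differed by -1.27 in torpor against summer active, and the transferrin receptor TFRC by -2.25 in winter active against summer active (limma adjusted p = 0.0675 and 0.0650). In the added November comparison NCOA4 and TFRC fell (differences of -1.004 and -2.15, limma adjusted p = 0.0353 and 0.0234). BLVRA differed by -0.71 in arousal against torpor and FTH1 by -0.83 in winter active against torpor (limma adjusted p = 0.174 and 0.394).

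Regulators of macrophages were tested for 16 of 17 genes and efferocytosis genes for 14 of 14. By limma none of either list passed in the 4 main comparisons. Per comparison 2 to 5 and 1 to 3 had an unadjusted p under 0.05, against 13.2% to 19.7% of all tested genes. BACH1, which in mouse represses Spic until heme removes it, averaged 22.7 ± 1.46 in arousal and 8.10 ± 2.78 in torpor, a difference of 1.41 (limma adjusted p = 0.142). The means of BACH1 and SPIC were both highest in arousal. Both genes had separate libraries, higher in arousal than in torpor, as did 31.9% of tested genes. A link between the levels of BACH1 and SPIC was not tested. SPI1, the lineage factor PU.1, averaged 234 ± 14.4 in torpor and 114 ± 57.6 in summer active, and NR1H3, which marginal zone macrophages of mouse require, averaged 395 ± 121 in torpor and 170.3 ± 93.6 in summer active. The growth factor CSF1 averaged 86.8 ± 3.29 in winter active and 41.7 ± 15.1 in summer active. IRF8 differed by -0.73 in torpor against summer active and by 1.09 in winter active against torpor, and NFE2L2 by 0.92 in winter active against summer active (limma adjusted p = 0.212, 0.271 and 0.271). MFGE8, a bridge to dying cells, differed by -1.99 in torpor and -1.62 in winter active against summer active (0.144 and 0.211), the lipid exporter ABCA1 by 1.03 in arousal against torpor (0.148) and DOCK1 by 1.07 in winter active against torpor (0.274), all by limma.

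The integrin partners and companions of VCAM1 were tested for 6 of 6 genes, with none past the limma threshold in the 4 main comparisons. From 0 to 1 had an unadjusted p under 0.05, against 13.2% to 19.7% of all tested genes. ITGA4, a chain of the VCAM1 receptor on leukocytes, averaged 104 ± 2.78 in torpor and 76.3 ± 2.56 in summer active (difference 0.45, limma adjusted p = 0.273), and ITGB1 averaged 137 ± 31.7 in torpor and 159 ± 61.5 in summer active. ITGB7 differed by -0.72 in arousal and -0.88 in winter active against torpor, and ITGA9 by 0.95 in winter active against summer active (limma adjusted p = 0.301, 0.368 and 0.291). Interferon-induced genes, to which SIGLEC1 belongs in human cells, were tested for 12 of 12. In torpor 9 of 12 and in winter active 10 of 12 had a positive difference from summer active, with medians of 0.47 and 1.08. Over all tested genes 45.1% and 54.0% were positive, with medians of -0.055 and 0.046. By limma 4 and 7 of the 12 had an unadjusted p under 0.05, of which 3 and 6 were higher. The shares of all tested genes at that p were 16.0% and 14.8%. In the 4 main comparisons RSAD2 alone passed, and it fell, to 1.30 ± 0.255 in torpor against 42.7 ± 19.1 in summer active (difference -4.18, limma adjusted p = 0.0428), and it lost the call in 10 of 15 alternatives (limma adjusted p = 0.0525 to 0.236), where its difference was -3.72 to -4.30. IFIT2 averaged 22.1 ± 13.6 in torpor and 5.42 ± 0.659 in summer active. In arousal against summer active IFIT2 rose (2.16, limma adjusted p = 0.0404) and RSAD2 fell (-4.06, 0.0225). IFIT1 differed by 1.00 in arousal and 1.56 in winter active against torpor (limma adjusted p = 0.229 and 0.274), and RSAD2 by -2.98 in winter active against summer active (0.0912).

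Markers of other cells moved with some of these comparisons, and their part in the members' values was not tested. B cell markers (10 of 10 measured) summed to 879 to 1125 in torpor and 2647 to 3058 in summer active. Monocyte markers (6 of 8 measured) summed to 5806 to 8816 in torpor and 4111 to 4704 in summer active. Neutrophil markers (11 of 12) summed to 1597 to 12690 in torpor, with the high value in torpor 1, and 2234 to 2429 in summer active, with ELANE and MMP8 at 0 in at least 1 library. Endothelial markers (10 of 10), which bear on VCAM1, summed to 238 to 261 in torpor, 343 to 368 in arousal, 385 to 423 in winter active and 159.9 to 405 in summer active. VCAM1 over the endothelial gene PECAM1 was 41.0 and 69.3 in torpor, 57.5 and 46.2 in arousal, 59.4 and 54.0 in winter active and 41.5 and 49.3 in summer active, so that ratio did not separate the seasons. VCAM1 over CSF1R did not either, at 1.21 to 2.09 in the November libraries and 1.22 and 2.36 in summer active, while VCAM1 over CD68 did, at 4.99 to 15.02 in November and 3.85 and 4.26 in summer active. Stromal markers (9 of 10), the other source of VCAM1, summed to 583 to 792 in torpor, 505 to 823 in arousal, 804 to 900.0 in winter active and 589 to 868 in summer active. Erythroid markers (9 of 10) summed to 107 to 148 in torpor and 5800 to 8698 in summer active, with HBM at 0 in at least 1 library. T cell markers (8 of 10) summed to 186 to 240.0 in torpor and 367 to 389 in summer active, and dendritic markers (9 of 10) to 154 to 213 in torpor and 165 in both summer active libraries. Pancreatic markers (5 of 6) summed to 324 to 1334 in torpor, against 12.5 and 15 in summer active, and adipocyte markers (5 of 6) to 63.7 to 79.7 in torpor and 9.30 to 9.98 in summer active.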

How the data were processed

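The tools kallisto 0.46.2 and sleuth 0.30.0 stand in the submitters' processing notes. No source used here gives the reference transcriptome or the way values were rescaled. The deposited values are a rescaled TPM signal with 1 value per gene and library, and column totals run from 745098 to 1331820. The test was planned for TPM and was used unchanged on this signal. Every one of the 19652 genes was found in RefSeq's annotation of mRhiFer1_v1.p, which served for names and gene order. No counts were available, so depth is unknown.

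Genes with a mean of at least 1 (13542) were tested with limma 3.58.1 (R 4.3.3) on log2(value + 1), all 8 libraries in 1 fit with a trend (4 residual and 3.29 prior degrees of freedom), at a Benjamini-Hochberg adjusted p under 0.05. The log2 scale understates changes of low genes. Members and lists were chosen with earlier results of these data known. Besides the members, the text names a fixed set of partner genes and the gene with the smallest p of each of 8 lists in each main comparison. Of the fixed set HP is not analysed here. Replicates are labelled biological. Alternatives were a pseudocount of 0.1, no filter, columns set to totals of 1000000, median-of-ratios rescaling, quantile normalization, a fit to the 2 compared states alone, the replicate number as a block, and each library left out in turn. Added after the values were seen were the November comparison and scaling to the 18 other macrophage markers. The fit was tested on simulated data with differences planted in torpor against summer active. Planted log2 differences of 1, 2 and 3 were called in 17.5%, 68.7% and 87.6% of cases, and 4.73% of calls were false. A difference of about 1 was thus mostly missed.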

Additional observations from a re-analysis of the deposited data

How the results depend on the processing

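Of 740 member values under alternatives in the 4 main comparisons and the November comparison, 684 kept their direction and side of the threshold, 18 newly passed and 38 turned in sign. The number of members called was 0 to 2 without single libraries in torpor, winter active and arousal against summer active, and 0 to 6 in the November comparison. With columns set to 1000000 it was 1 in winter active, 5 in arousal and 5 in November against summer active, where the all-gene median moved to 0.55, 0.76 and 0.54. All genes called under that setting numbered 779, 6099 and 4759 of the 13542 tested, so the members' calls came with many others. Quantile normalization gave 1 in arousal and 1 in November against summer active, and so did the replicate block, which changed no other member call (VCAM1 passed in both, in November with limma adjusted p = 0.0385). Same-numbered libraries' deviations from their state means correlated between -0.19 and 0.32 over the 6 pairs of states, so the numbers were not taken as pairs. All genes called numbered 76 in torpor against summer active (11 with only the 2 states compared, 9 to 312 without single libraries), 140 in winter active against summer active (779 with columns at 1000000, 32 with 2 states, 15 to 374) and 748 in arousal against summer active (284 with no filter, 6099 with columns at 1000000, 27 with 2 states, 25 to 677). The November comparison had 395 (244 with no filter, 4759 with columns at 1000000, 37 to 630). In arousal against torpor 445 passed with columns at 1000000 and 0 to 2 without single libraries. Winter active gave 4 against torpor and 1 against arousal with no filter, and 0 to 1 against arousal without single libraries. With columns set to 1000000, signs turned for CD163 in torpor against summer active (0.25), TIMD4 in arousal and winter active against torpor (0.34 and 0.16), C1QB in winter active against torpor (0.0044) and CD5L in November (0.28), and, among the other comparisons, for CD163 (0.74) and CD5L (0.089) in arousal against summer active and TIMD4 (-0.18), SIGLEC1 (-0.057), C1QA (-0.18) and C1QC (-0.0081) in winter active against arousal. Taken relative to the all-gene median on that scale, all of these differences kept their sign from the main fit. CD163 stood at -0.038 in torpor and CD5L at -0.67 in arousal against summer active, and TIMD4 at 0.046 in winter active against arousal. Median-of-ratios rescaling turned CD163 (-0.0083) and CD5L (-0.11) in arousal and VCAM1 (-0.027) in winter active against torpor. Quantile normalization turned C1QB (0.32) and C1QC (0.037) in arousal and C1QB (0.22) in winter active against torpor. Over fits without single libraries, torpor against summer active ranged from -1.01 to 0.74 for CD163, -1.50 to 0.13 for CD5L, -0.29 to 1.15 for SIGLEC1 and -0.19 to 1.71 for SPIC. Arousal against torpor ranged from -0.066 to 0.31 for CD163, -0.71 to 0.75 for CD5L, -0.29 to 0.22 for TIMD4 and -0.20 to 1.21 for SIGLEC1. Winter active against torpor ranged from -0.014 to 0.57 for MARCO, -0.058 to 0.24 for VCAM1, -0.64 to 0.615 for TIMD4, -0.36 to 0.018 for C1QB and -0.21 to 0.65 for SPIC. Winter active against summer active ranged from -0.30 to 1.45 for CD163, -0.33 to 1.31 for CD5L, -0.034 to 1.54 for C1QA, -0.13 to 1.775 for C1QB and -0.28 to 1.59 for C1QC. November against summer active ranged from -0.73 to 1.02 for CD163, -1.11 to 0.53 for CD5L, -0.15 to 1.76 for C1QB and -0.18 to 1.69 for C1QC. The cause of these changes was not tested. With 2 libraries per state and unknown depth, a difference that missed the threshold is not shown to be absent.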
